A study of Mus musculus with 4 samples.

Results

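Dermal papilla-like cells were taken from single-cell RNA libraries of mouse back skin as cells rich in 5 genes: Sostdc1, Wif1, Rspo3, Corin and Hhip. A cell was chosen when these genes together gave at least 10 UMIs (unique molecular identifiers, each counting 1 captured RNA molecule). It also had no UMI of the leukocyte gene Ptprc, at most 5 UMIs of the keratinocyte genes Krt14 and Krt5 together, and under 10 UMIs of the melanocyte genes Pmel, Dct, Mlana and Tyrp1 together. The rule found 763 of 28607 kept cells: 478 in the DMBA/TPA WT library, 275 in the DMBA/TPA Cd226-/- library, 7 in the naive CD45- library and 3 in the naive CD45+ library.

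All mice were BALB/c, an albino strain. The treated mice were WT or lacked Cd226, the gene of the leukocyte adhesion receptor DNAM-1. Their shaved back skin received 25 µg of DMBA, a carcinogen that initiates tumours, and from 1 week later 5 µg of TPA, a phorbol ester that promotes them, in 3 weekly applications; cells were collected 3 weeks after treatment. Each treated library pooled skin of 3 mice, and its CD45+ and CD45- sorted cells were mixed in equal parts. The naive libraries held sorted CD45- or CD45+ cells of untreated WT and Cd226-/- mice pooled together, so they carry no genotype contrast. With 1 library per group, no difference between groups could be tested: every interval below is an exact 95% interval that covers counting error only, and genotype, library and mouse pool cannot be told apart. The stage of the hair cycle in each pool, which sets the state of the papilla, is not given in the sources used here.

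The dermal papilla is a cluster of specialised mesenchymal cells at the base of the hair follicle. It sends Wnt, FGF and BMP-pathway signals to the epithelial cells that make the hair, receives hedgehog signal from them, and tells the pigment cells of the hair bulb which pigment to make. R-spondins strengthen Wnt signalling at the receptor, whereas Sostdc1, Wif1 and the Sfrp and Dkk families are secreted proteins that restrain it. The dermal sheath is the contractile mesenchymal layer that wraps the follicle and is continuous with the papilla.

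The treated libraries held 7212 (WT) and 6682 (Cd226-/-) kept cells and the naive ones 11200 (CD45-) and 3513 (CD45+), from libraries of 42043869 to 81406730 gene UMIs. Pairs of libraries shared 9 to 21 cell barcodes, none of them a dermal papilla-like cell. The antibody tag for DNAM-1 had a median of 25 UMIs on Ptprc-positive cells of the WT library and 3 on those of the Cd226-/- library. Cd226 RNA gave 214 UMIs in 1871 such WT cells and 121 in 3074 such Cd226-/- cells; the sources used here do not say which part of the gene was deleted, and 3′ counts therefore do not check it. In the dermal papilla-like cells themselves Cd226 gave 4 UMIs (WT) and 0 (Cd226-/-). The DNAM-1 tag nevertheless had medians of 17 (WT) and 2 UMIs (Cd226-/-) on these cells. Its difference was thus not confined to leukocytes, and the tag does not check the genotype.

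Dermal papilla-like cells made up 8.95% of the Ptprc-negative kept cells in the WT library (478 of 5341, 8.20% to 9.75%) and 7.62% in the Cd226-/- library (275 of 3608, 6.78% to 8.54%). They made up 0.0631% in the naive CD45- library (7 of 11089, 0.0254% to 0.130%). In the naive CD45+ library, which was sorted to lack such cells, 3 of 422 Ptprc-negative cells were chosen (0.711%, 0.147% to 2.06%). The counting intervals of the treated libraries overlapped each other and lay far above that of the naive CD45- library. The treated and naive skins also differed in sorting and pooling, so a share of the tissue cannot be read from these libraries.

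The genes that chose the cells are described without a test, as their values made the rule. Levels are UMIs of a gene per 1000000 gene UMIs summed over the cells (CPM). In 3′ counting each molecule gives 1 UMI whatever its length, but capture can differ between genes, so an order of genes by level is approximate. Sostdc1, a secreted antagonist of BMP and Wnt, stood at 5627 CPM in WT and 3024 CPM in Cd226-/- cells. Wif1, a secreted Wnt inhibitor, stood at 2465 CPM in WT and 3180 CPM in Cd226-/- cells. Rspo3, an R-spondin, stood at 1842 CPM in WT and 1279 CPM in Cd226-/- cells. Sostdc1 led the WT cells and Wif1, by a small margin, the Cd226-/- cells. Corin, a membrane protease known to modify agouti coat colour from the papilla, stood at 970 CPM in WT and 473 CPM in Cd226-/- cells. Hhip, a membrane protein that binds and restrains hedgehog ligands, stood at 888 CPM in WT and 1109 CPM in Cd226-/- cells. The genes lie at chr12:36314139-36318452 (Sostdc1), chr10:121033960-121100650 (Wif1), chr10:29452416-29535867 (Rspo3), chr5:72300025-72504473 (Corin) and chr8:79965851-80058006 (Hhip) of GRCm38.

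**Figure D1:**
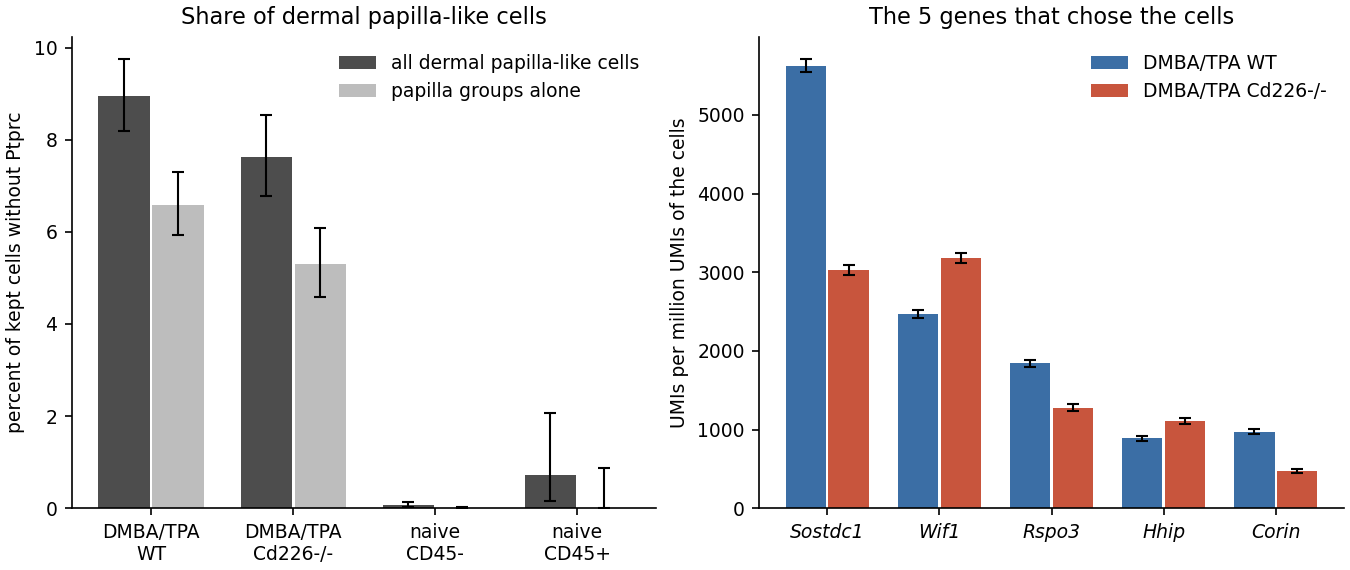
Left, percent of kept Ptprc-negative cells that were dermal papilla-like (dark bars) and that fell in the papilla groups alone (light bars) in the 4 libraries, with exact 95% binomial intervals. Right, levels (CPM) of the 5 genes of the rule in the treated libraries, with exact 95% Poisson intervals. The naive bars lie at or near 0, and Sostdc1 is the tallest bar on the WT side.

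Most of the cells carried the whole set. All 5 genes were seen in 307 WT and 147 Cd226-/- cells, and only 1 of them in 30 WT and 22 Cd226-/- cells. The gene with most UMIs was Sostdc1 in 225 WT and 78 Cd226-/- cells and Wif1 in 184 WT and 174 Cd226-/- cells, while Wif1 led in all 7 and 3 naive cells. The median sum of the 5 genes was 66.5 UMIs per WT cell and 64 per Cd226-/- cell, far above the threshold. Cells just inside it, with 10 to 11 UMIs, numbered 21 (WT) and 11 (Cd226-/-), held a median of 1 of the genes, and were led by Wif1 in 15 and 10 cases. Cells just outside, with 8 to 9 UMIs, numbered 18 and 19, also held a median of 1 gene, and were led by Wif1 in 15 and 18 cases.

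The label was checked against genes the rule did not use. Of 28 further dermal papilla genes, 27 had at least 50 UMIs over both treated libraries, and 24 of these were at least 1.5-fold higher than in other mesenchymal cells of the same library, in both libraries; none was lower in both. The comparison cells had at least 10 UMIs of Col1a1, Col1a2 and Col3a1 together, no UMI of the 5 rule genes and no endothelial UMI (Pecam1, Cdh5), so those genes are not findings here. By the same count 28.9% of all 9271 genes tested were higher and 6.99% were lower. The counts of other lists against other mesenchymal cells below are to be read beside these shares. The median log2 ratio of the papilla list was 4.67 in WT and 6.10 in Cd226-/- cells, against 0.38 and 0.36 over all genes tested. Crabp1, which binds retinoic acid, stood at 1179 CPM (WT) and 1137 CPM (Cd226-/-), against 10.7 and 7.90 CPM in other mesenchymal cells. Lef1, a transcription factor of the Wnt pathway, stood at 212 and 160 CPM, against 0.358 and 0.288 CPM. Each of these genes was thus nearly absent from the comparison cells in both libraries.

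The homeobox factor Alx4 stood at 172 CPM in WT and 190 CPM in Cd226-/- cells, against 0.149 and 0.256 CPM in other mesenchymal cells. Enpp2, the enzyme autotaxin, stood at 1691 and 2297 CPM, and Ndnf, a secreted neurotrophic factor, at 439 and 445 CPM. Sox2, a transcription factor that marks the papillae of some hair types and not others, stood at 75.6 and 110 CPM, against 0 and 0.0640 CPM. After each cell was thinned to 3000 UMIs, Sox2 was seen in 18.8% of WT and 18.8% of Cd226-/- cells and in 0.307% and 0.184% of Ptprc-positive cells. The prolactin receptor gene Prlr, from the hormone receptor list, stood at 371 and 546 CPM, against 0.836 and 1.63 CPM. It was seen in 53.4% and 60.9% of the thinned cells, a majority in both libraries, whereas Sox2 was seen in a minority.

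The chosen cells were not of a single kind. Grouped on their variable genes without the 5 rule genes, they fell into 7 groups, of which 1 was rich in the smooth muscle actin gene Acta2 and 1 in the fibroblast gene Dcn. The Acta2-rich group is called sheath-like (60 WT and 52 Cd226-/- cells; 5 cells from naive CD45- and 3 from naive CD45+ were grouped with it, and their own marker levels are given at the end), the Dcn-rich group fibroblast-like (66 WT and 32 Cd226-/- cells, with 2 from naive CD45-), and the other 5 are the papilla groups (352 WT and 191 Cd226-/- cells, no naive cell). Papilla-group cells were 6.59% of the Ptprc-negative WT cells (5.94% to 7.29%) and 5.29% of the Cd226-/- cells (4.59% to 6.08%). These groups were drawn from the same cells and are described, not tested. The name sheath-like rests on the summed Acta2 level of its group. Of all dermal papilla-like cells, 57 WT and 53 Cd226-/- cells had an Acta2 UMI, and 20 and 24 had at least 10. Most cells of the sheath-like group were thus not themselves rich in Acta2. Its WT and Cd226-/- cells also differed, with Col1a1 at 2532 CPM and 17070.5 CPM.

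Crabp1 stood at 2036 CPM (WT) and 1882 CPM (Cd226-/-) in the papilla groups, at 224 and 163 CPM in the sheath-like group and at 199 and 302 CPM in the fibroblast-like group. Acta2 stood at 15.2 and 18.9 CPM in the papilla groups, at 1061 and 3707 CPM in the sheath-like group and at 58.4 and 47.7 CPM in the fibroblast-like group. Dcn stood at 88.9 and 60.1 CPM in the papilla groups, at 295 and 347 CPM in the sheath-like group and at 9494 and 9506 CPM in the fibroblast-like group. Acta2 and Dcn were the genes that set the groups apart, so the low levels of both in the papilla groups follow from the naming and are no finding. The aggrecan gene Acan, from the sheath list, stood at 108 and 361 CPM in the sheath-like group and at 4.5 and 2.8 CPM in the papilla groups. Of the 22 WT and 11 Cd226-/- cells called doublets, 20 and 11 lay in the fibroblast-like group, whose median cell held 16011.5 and 16598 UMIs against 4873.5 and 6563 in the papilla groups.

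**Figure D2:**
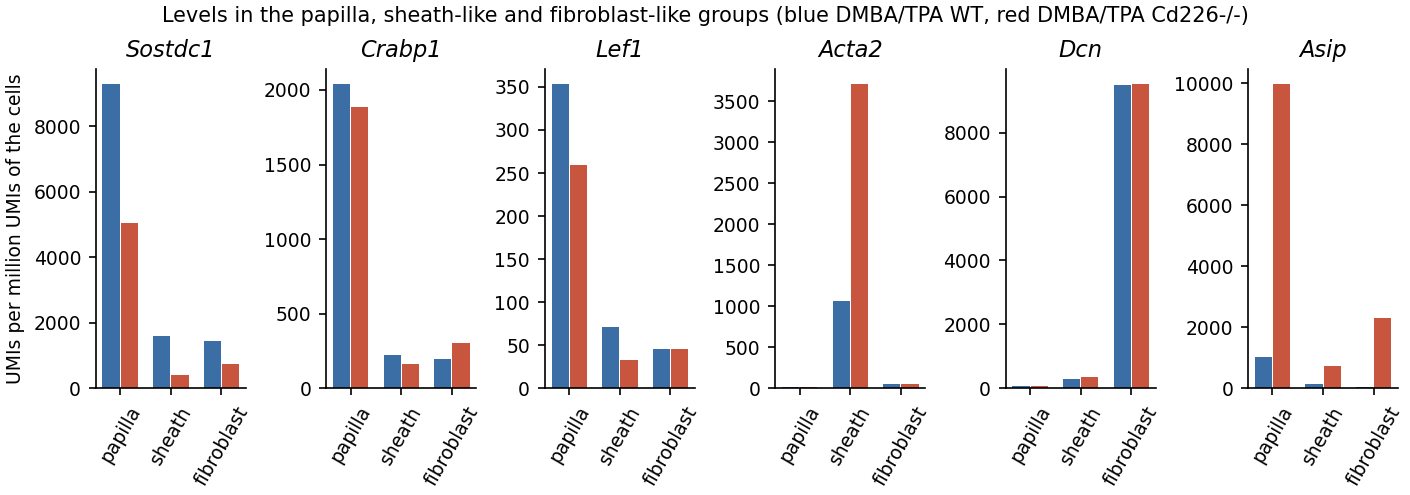
Levels (CPM) of 6 genes in the papilla, sheath-like and fibroblast-like groups of the WT (blue) and Cd226-/- (red) treated libraries; each panel has its own axis from 0, and bars are sums over cells with no replicate. Crabp1 and Lef1 are highest in the papilla groups of both libraries. Acta2 is highest in the sheath-like and Dcn in the fibroblast-like group, which were set apart by these genes.

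Markers of other cell types were summed over each list, although the rule itself set Ptprc to 0 and capped Krt14, Krt5, Pmel, Dct, Mlana and Tyrp1, so low levels of these 7 genes are no finding. Summed over each list, melanocyte genes gave 122 CPM (WT) and 26.5 CPM (Cd226-/-), keratinocyte genes 72.6 and 52.6 CPM, immune genes 86.4 and 70.6 CPM, and Schwann genes 101 and 118 CPM. The same sums in other mesenchymal cells were 147 and 108, 57.1 and 32.5, 105 and 118, and 41.0 and 39.7 CPM. The Schwann and melanocyte gene Sox10, the muscle genes Myod1 and Pax7 and the hair matrix gene Shh had no UMI in either treated library. No gene of the endothelial list reached 50 UMIs. The mitochondrial share had a median of 5.36% in WT and 4.71% in Cd226-/- cells, against 1.97% and 1.80% in other mesenchymal cells, and the median depth was 5210.5 and 7178 UMIs, against 9989.5 and 12579.5; the part of these in the differences between the cell classes was not tested.

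Activators and inhibitors of Wnt signalling were both abundant. Of 18 Wnt ligands and R-spondins beside Rspo3, 7 were measured, and 6 of them were higher than in other mesenchymal cells in both libraries (median log2 ratio 5.07 and 5.74). Rspo1 stood at 710 CPM (WT) and 466 CPM (Cd226-/-), against 16.6 and 12.3 CPM. Rspo2 stood at 187 and 181 CPM, against 0.597 and 1.25 CPM. Wnt5a, a ligand that mostly acts without beta-catenin, stood at 191 and 459 CPM, against 8.75 and 6.27 CPM. Rspo3 thus stood above every measured Wnt ligand in both libraries, and Rspo1 did so in WT. In Cd226-/- cells Rspo1 (466 CPM) and Wnt5a (459 CPM) were too close to rank.

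Of the Wnt inhibitors beside the rule genes, 9 of 14 were measured, 6 were higher in both libraries and 1, Sfrp4, was lower in both, at 17 and 14.6 CPM against 147 and 288 CPM. Sfrp1, a secreted protein that binds Wnts, stood at 1778 CPM (WT) and 577 CPM (Cd226-/-), against 239 and 287 CPM. Notum, an enzyme that strips the lipid from Wnts, stood at 61.9 and 185 CPM, against 0.119 and 0.0960 CPM. Of 14 Wnt factors and targets, 12 were measured and 10 were higher in both libraries. The feedback gene Axin2 stood at 55.9 and 23.0 CPM, against 4.15 and 2.69 CPM, and the feedback gene Nkd2 at 243 and 149 CPM, against 10.1 and 11.7 CPM. The cells thus held activators, inhibitors and feedback genes of the same pathway together.

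BMP and activin ligands were also higher than in other mesenchymal cells. Of 14 ligands, 12 were measured, 9 were higher in both libraries and none was lower in both. Inhba, the subunit of activin A, stood at 1331 CPM (WT) and 453 CPM (Cd226-/-), against 13.1 and 9.56 CPM in other mesenchymal cells. Bmp4 stood at 263 and 286 CPM, against 34.3 and 24.4 CPM, and Bmp6 at 42.4 and 126 CPM, against 0.925 and 0.480 CPM. Among 13 measured antagonists, 3 were higher and 4 lower in both libraries, against 28.9% and 6.99% of all genes tested. Noggin (Nog), which binds BMPs, stood at 98.3 and 85.6 CPM, against 3.16 and 1.25 CPM, whereas Grem1, another BMP antagonist, stood at 2.39 and 2.30 CPM, against 201 and 41.4 CPM. The antagonist list thus held genes above and genes below the comparison cells, with no more higher genes than the share over all genes. Of 14 measured receptors and targets, 8 were higher and 1 lower in both libraries; the pseudoreceptor Bambi stood at 252 and 325 CPM, against 5.04 and 4.22 CPM.

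FGF ligands and receptors were higher in 8 of 9 measured cases (median log2 ratio 3.00 and 3.43). Fgf7, a growth factor for keratinocytes, stood at 822 CPM (WT) and 1125 CPM (Cd226-/-), against 103 and 112 CPM. Fgf10, a related ligand, stood at 332 and 197 CPM, against 17.2 and 9.76 CPM. The receptor gene Fgfr1 stood at 503 and 620 CPM, against 231 and 274 CPM. The ligands thus stood further above the comparison cells than Fgfr1 did.

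Of 21 hedgehog genes, 14 were measured, 9 were higher and 1 lower in both libraries. Ptch1, the hedgehog receptor and a target of the pathway, stood at 326 CPM (WT) and 493 CPM (Cd226-/-), against 23.2 and 11.9 CPM. Gli1, a transcription factor and target, stood at 41.8 and 75.2 CPM, against 15.1 and 8.48 CPM. Scube3, a secreted protein of a family that helps to release hedgehog ligands, stood at 352 and 386 CPM, against 0.179 and 0.128 CPM, and Scube1 at 152 and 193 CPM, against 0.0895 and 0.128 CPM. The response genes Ptch1 and Gli1 were thus present in cells in which the ligand gene Shh was not seen.

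Pigment signals were measured for 8 of 16 genes, and 6 were higher in both libraries. Edn3, the endothelin that acts on pigment cells and their precursors, stood at 706 CPM (WT) and 566 CPM (Cd226-/-), against 0.149 and 0.256 CPM, and was seen in 58.3% and 58.7% of the thinned cells. Asip, the agouti signalling protein that blocks the melanocortin receptor of pigment cells, stood at 577 and 6137 CPM, against 29.4 and 7.90 CPM. Kitl, the ligand of the receptor Kit on pigment cells, had only 7.17 and 4.99 CPM, against 35.5 and 52.2 CPM. Edn3 and Asip thus stood above Kitl in both libraries. Asip was seen in 8.74% of the thinned WT and 49.8% of the thinned Cd226-/- cells, so in WT few cells held it. The Notch target gene Hey2 stood at 56.8 and 130 CPM, against 0.209 and 0.0960 CPM; 5 of the 7 measured Notch genes were higher in both libraries.

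Inflammatory genes showed the opposite order. Of 24 measured inflammatory genes, 18 were lower than in other mesenchymal cells in both libraries and none was higher in both (median log2 ratio -1.72 and -2.16). The chemokine gene Cxcl12 stood at 222 CPM (WT) and 145 CPM (Cd226-/-), against 765 and 678 CPM, and Ccl2 at 57.4 and 81.8 CPM, against 468 and 381 CPM. Of 19 measured interferon-gamma response genes, 10 were lower and none higher in both libraries; the interferon-inducible GTPase gene Iigp1 stood at 34.7 and 8.06 CPM, against 186 and 184 CPM.

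**Figure D3:**
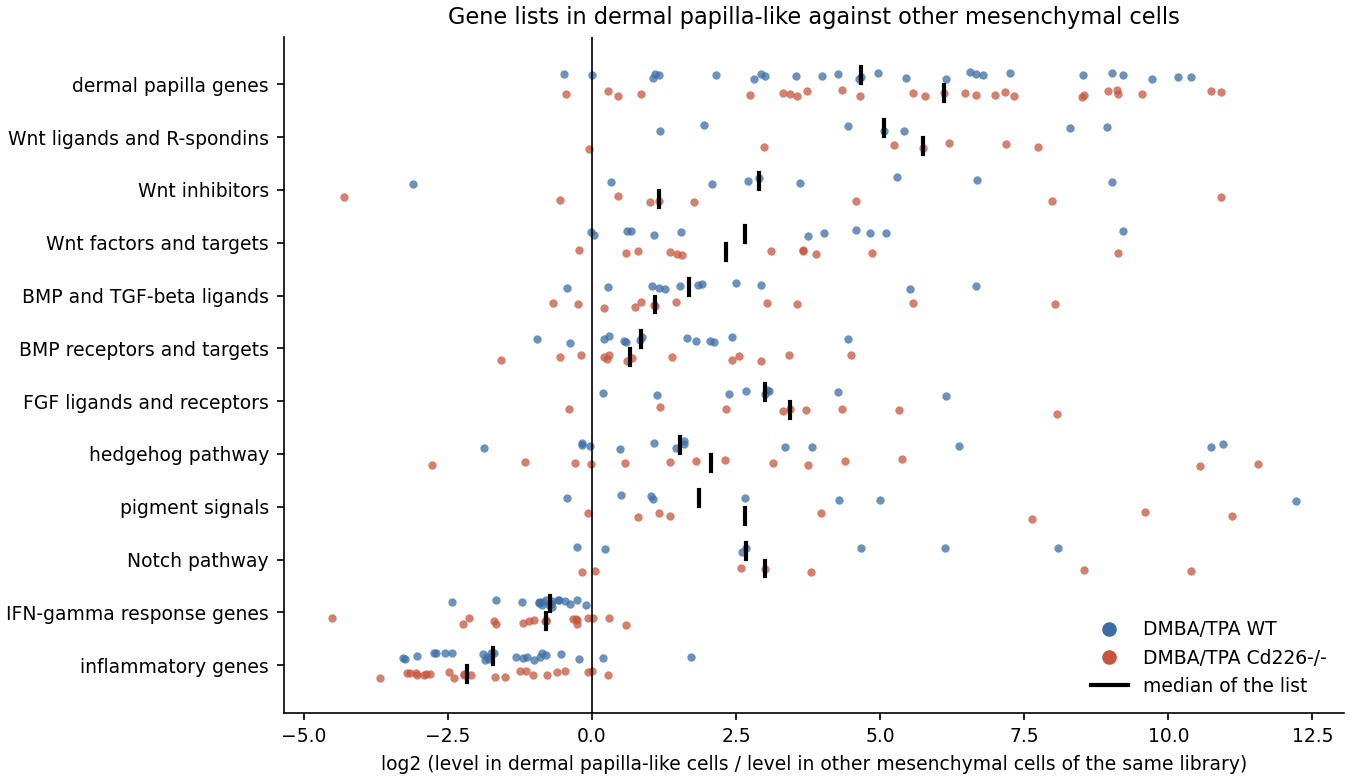
Each point is a gene with at least 50 UMIs over both treated libraries, at the log2 ratio of its level in dermal papilla-like cells to that in other mesenchymal cells of the WT (blue) or Cd226-/- (red) library; black bars are list medians. Papilla, Wnt, BMP, FGF, hedgehog, pigment and Notch lists have medians above 0, and the interferon-gamma and inflammatory lists medians below 0.

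The comparison of the genotypes within the treated, dermal papilla-like cells asked how these cells differed between mice with and without DNAM-1. Of 9271 genes with at least 50 UMIs over both libraries, 1619 (17.5%) differed by at least 1.5-fold in level, a rule of size and not a test: 763 (8.23%) were higher and 856 (9.23%) lower in Cd226-/- cells. In the papilla groups alone 1612 of 7381 genes (21.8%) passed the same rule, 898 (12.2%) higher and 714 (9.67%) lower. In other mesenchymal cells 811 of the 9271 genes did (8.75%). The genotype counts of the lists below are to be read beside these shares. The median log2 ratio of Cd226-/- over WT was 0.01 over all genes in the dermal papilla-like cells, 0.07 in the papilla groups and 0.04 in other mesenchymal cells. Asip, Sox18 and Fst were among the signal and identity genes higher in Cd226-/- cells, and Inhba, Rspo4, Sfrp1 and Sfrp2 among those higher in WT.

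Of the 27 measured papilla genes, 7 were at least 1.5-fold higher and 4 lower in Cd226-/- cells (median log2 ratio 0.12), with the same counts among 26 genes in the papilla groups. Sox18, a transcription factor of early papillae, stood at 49.9 CPM in WT and 175 CPM in Cd226-/- cells, 3.50-fold higher (2.92 to 4.20). Alkaline phosphatase (Alpl), a classical papilla stain, stood at 127 and 428 CPM, 3.38-fold higher (3.02 to 3.78). In other mesenchymal cells Alpl went the other way, from 59.4 CPM in WT to 32.4 CPM in Cd226-/- cells. Versican (Vcan), a matrix proteoglycan of the growing papilla, stood at 1448 and 2932 CPM, 2.02-fold higher (1.95 to 2.1). Other papilla genes stayed within 1.5-fold: Crabp1 was 1.04-fold higher in WT (0.988 to 1.09) and Alx4 1.11-fold higher in Cd226-/- cells (0.979 to 1.25).

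Lower in Cd226-/- cells were Inhba, Igfbp3, Fgf10 and the transcription factor gene Tfap2c. Inhba stood at 1331 CPM in WT and 453 CPM in Cd226-/- cells, 2.94-fold higher in WT (2.76 to 3.14), and 3.23-fold in the papilla groups. Igfbp3, a binding protein of insulin-like growth factors, stood at 576 and 169 CPM, 3.40-fold higher in WT (3.07 to 3.78). It was 1.79-fold higher with a rule sum of at least 5 and 5.97-fold with at least 3 rule genes per cell. Most of its UMIs came from the sheath-like group, with 2513 CPM (WT) and 545 CPM (Cd226-/-), against 182 and 44.7 CPM in the papilla groups. Tfap2c stood at 80.1 and 31.9 CPM, 2.51-fold higher in WT (1.96 to 3.26).

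Most measured Wnt inhibitors were higher in WT. Of 9 measured, 5 were lower and 1 higher in Cd226-/- cells, with a median log2 ratio of -1.37 against 0.01 over all genes, and 6 of 8 were lower in the papilla groups (median -1.67). Sfrp1 stood at 1778 CPM in WT and 577 CPM in Cd226-/- cells, 3.08-fold higher in WT (2.91 to 3.26). Sfrp2 stood at 731 and 190 CPM, 3.84-fold higher in WT (3.49 to 4.24), while in other mesenchymal cells it stood at 112 CPM in WT and 281 CPM in Cd226-/- cells. Dkk2, which blocks the Wnt co-receptors, stood at 160 and 44.1 CPM, 3.62-fold higher in WT (2.96 to 4.47). Dkk3, a relative of it, and Apcdd1, a membrane inhibitor of Wnt, went the same way, at 77.4 against 29.9 CPM and 46.9 against 14.6 CPM. The exception was Notum, at 61.9 CPM in WT and 185 CPM in Cd226-/- cells, 2.98-fold higher in Cd226-/- cells (2.53 to 3.53). The list's difference was thus not in 1 direction.

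Among 7 measured Wnt ligands and R-spondins, 2 were higher and 3 lower in Cd226-/- cells. Rspo4, an R-spondin, stood at 323 CPM in WT and 67.9 CPM in Cd226-/- cells, 4.76-fold higher in WT (4.06 to 5.61). Rspo1 stood at 710 and 466 CPM, 1.52-fold higher in WT (1.42 to 1.63), and Rspo2, at 187 and 181 CPM, was 1.03-fold higher in WT (0.915 to 1.17). Wnt5a stood at 191 and 459 CPM, 2.40-fold higher in Cd226-/- cells (2.18 to 2.64), and Wnt6, a low ligand gene, at 11.1 and 18.8 CPM, 1.70-fold higher (1.09 to 2.68). With at least 3 rule genes per cell Rspo1 was 1.47-fold higher in WT, and with a rule sum of at least 20 Wnt6 was 1.47-fold higher in Cd226-/- cells, both under 1.5-fold. Wnt11 was lower in Cd226-/- cells over all the cells, at 19.4 against 7.68 CPM, but stood at 4.5 and 4.89 CPM in the papilla groups.

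Of 13 measured Wnt receptors, 1 was higher and 2 lower, against 8.23% and 9.23% of all genes tested. Fzd4, a frizzled receptor, stood at 84.9 CPM in WT and 13.1 CPM in Cd226-/- cells, 6.5-fold higher in WT (4.55 to 9.57), but at only 6.75 and 1.40 CPM in the papilla groups. It was 2.70-fold higher in WT with a rule sum of at least 20. Fzd10 stood at 15.2 and 29.6 CPM, 1.94-fold higher in Cd226-/- cells (1.34 to 2.82). Of 12 measured factors and targets, 3 were lower in Cd226-/- cells and none higher. Axin2 stood at 55.9 and 23.0 CPM, 2.43-fold higher in WT (1.8 to 3.3). Tnfrsf19, a Wnt target, stood at 39.1 and 8.06 CPM, 4.86-fold higher in WT (3.05 to 8.11), and Nkd2 at 243 and 149 CPM, 1.63-fold higher in WT (1.44 to 1.84). In the papilla groups Nkd2 was within the rule (1.33-fold higher in WT) and 3 other genes of the list were higher in Cd226-/- cells, among them Twist1, a mesenchymal transcription factor, at 412 and 661 CPM.

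Of the BMP and TGF-beta ligands, 6 of 12 were lower and 2 higher in Cd226-/- cells, and 7 of 11 lower and 1 higher in the papilla groups. In other mesenchymal cells 6 were lower and 1 was higher. Bmp3, a ligand that restrains BMP signalling, stood at 87.9 CPM in WT and 30.3 CPM in Cd226-/- cells, 2.90-fold higher in WT (2.25 to 3.76), whereas other mesenchymal cells had 15.5 and 35.6 CPM; with a rule sum of at least 5 it was 1.86-fold higher in WT. Bmp2 stood at 30.8 and 12.3 CPM, 2.51-fold higher in WT (1.67 to 3.85). Bmp6 stood at 42.4 and 126 CPM, 2.97-fold higher in Cd226-/- cells (2.43 to 3.64), and Bmp4, at 263 and 286 CPM, differed by 1.09-fold (0.986 to 1.20). The ligands thus did not move together.

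Of 13 measured antagonists, 3 were higher and 3 lower in Cd226-/- cells. Follistatin (Fst), which binds activin, stood at 214 CPM in WT and 711 CPM in Cd226-/- cells, 3.32-fold higher (3.05 to 3.63) and 4.04-fold in the papilla groups, against 194 and 161 CPM in other mesenchymal cells. Inhba and Fst thus stood in opposite order between the libraries, but this did not hold for every antagonist of the list. Fstl3 was higher in WT, as Inhba was, with a log2 ratio of -0.79. It was 2.67-fold higher in WT in the papilla groups and 1.35-fold with a rule sum of at least 5. Of 14 measured receptors and targets, 4 were higher in Cd226-/- cells and none lower: Id1, Id2, Id4 and Smad6, all target genes of BMP signalling. Id1 stood at 136 and 236 CPM, 1.74-fold higher (1.54 to 1.97), and Id2 at 225 and 424 CPM, 1.88-fold higher (1.72 to 2.07). Both were also over 1.5-fold higher in other mesenchymal cells, by 1.69-fold and 1.52-fold. Id3, the most abundant of the Id genes at 1311 and 1276 CPM, was 1.03-fold higher in WT (0.982 to 1.08).

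FGF feedback genes were lower in Cd226-/- cells in 4 of 9 cases and higher in none (median log2 ratio -0.56; 3 of 6 lower in the papilla groups). Spry1, an inhibitor that FGF signalling induces, stood at 275 CPM in WT and 141 CPM in Cd226-/- cells, 1.96-fold higher in WT (1.73 to 2.21). Spry4, a relative, stood at 46.3 and 21.5 CPM, 2.15-fold higher in WT (1.58 to 2.98), while other mesenchymal cells had 2.95 and 5.66 CPM. Of 9 measured ligands and receptors, Fgf10 was lower, at 332 and 197 CPM (1.69-fold higher in WT, 1.52 to 1.88), and Fgfr2 higher, at 98.0 and 155 CPM (1.59-fold, 1.37 to 1.84). Fgf10 was 1.76-fold higher in WT in other mesenchymal cells too.

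Of 14 measured hedgehog genes, 3 were higher and 3 lower in Cd226-/- cells. The pathway's receptor and target Ptch1 stood at 326 CPM in WT and 493 CPM in Cd226-/- cells, 1.51-fold higher (1.39 to 1.64), and Gli1 at 41.8 and 75.2 CPM, 1.80-fold higher (1.44 to 2.25). Ptch1 was 1.47-fold higher, under the rule of size, with trimmed-mean scaling, and Gli1 1.46-fold higher with a rule sum of at least 5. In other mesenchymal cells both were lower in Cd226-/- cells, at 23.2 against 11.9 CPM and 15.1 against 8.48 CPM. The third gene that was higher, Foxd1, a forkhead transcription factor, stood at 16.7 and 31.5 CPM. Scube2 stood at 17.3 and 3.46 CPM, 5.02-fold higher in WT (2.47 to 11.5). The co-receptor gene Gas1 was 1.74-fold higher in WT (1.51 to 2.02) and 1.76-fold higher in WT in other mesenchymal cells. In the Notch list the target genes Hey1 (16.7 and 35.7 CPM) and Hey2 (56.8 and 130 CPM) were the 2 of 7 measured genes that were higher in Cd226-/- cells, by 2.13-fold (1.52 to 3.03) and 2.29-fold (1.91 to 2.74).

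**Figure D4:**
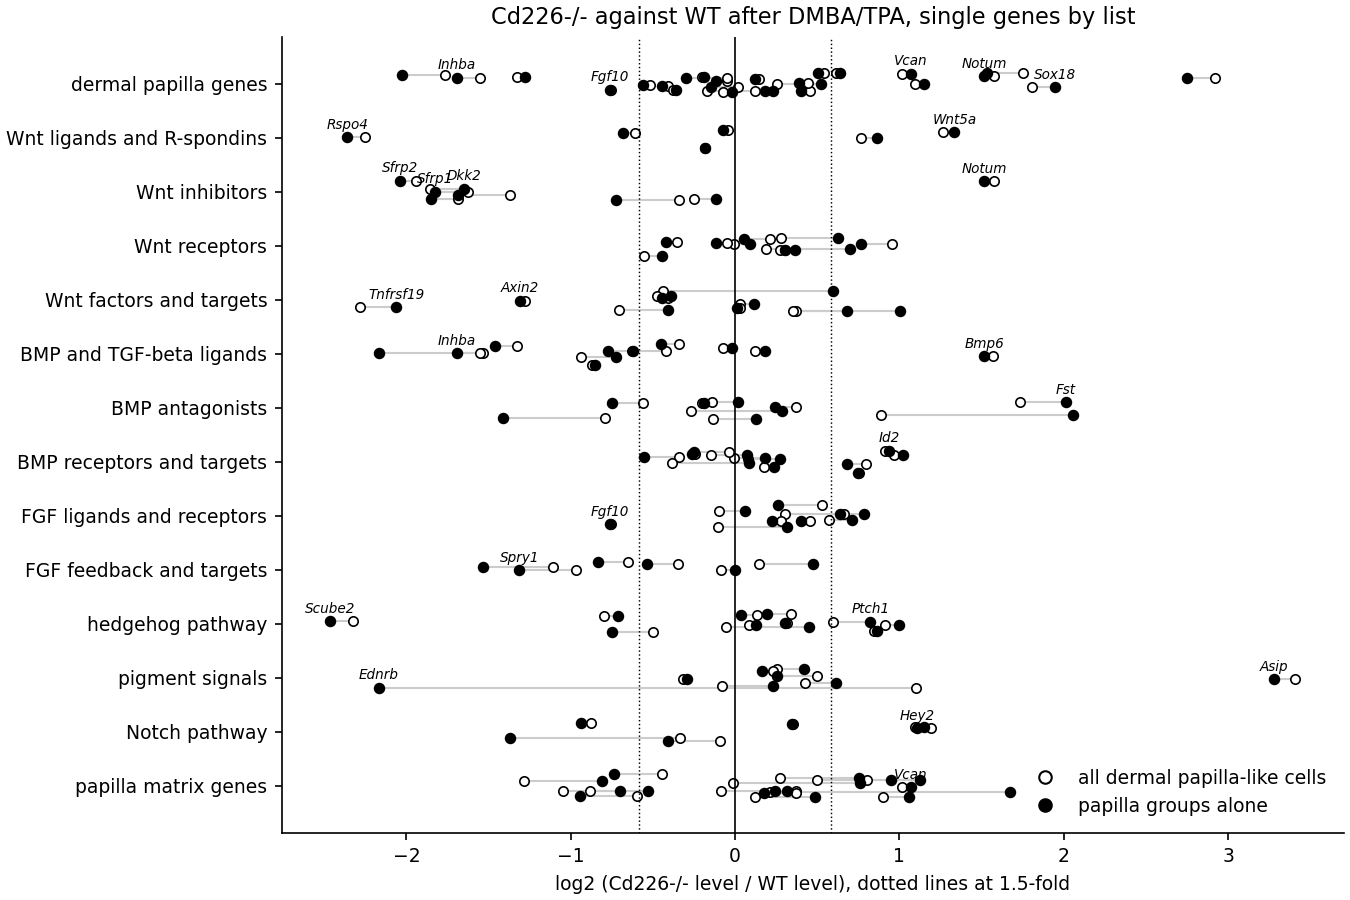
Log2 ratio of Cd226-/- over WT level for single genes of 14 lists in all dermal papilla-like cells (open) and in the papilla groups alone (filled), joined by a line; dotted lines mark 1.5-fold. Asip lies farthest to the right, and Ednrb crosses from the right to the left when the sheath-like and fibroblast-like groups are left out.

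Asip differed most of all pigment genes. It stood at 577 CPM in WT (1932 UMIs) and 6137 CPM in Cd226-/- cells, 10.6-fold higher (10.1 to 11.1), and at 1024 and 9954 CPM in the papilla groups, 9.73-fold higher (9.26 to 10.2). In other mesenchymal cells the order was reversed, at 29.4 CPM in WT and 7.90 CPM in Cd226-/- cells. Among all genes other than mitochondrial ones, Asip ranked 220 by level in WT and 5 in Cd226-/- cells, and in the papilla groups 131 and 2. Its annotated gene spans chr2:154791402-155051012 on the plus strand of GRCm38. Only 2 of the 8 measured pigment genes passed 1.5-fold upward in Cd226-/- cells, Asip and the endothelin receptor gene Ednrb. Ednrb, at 101 and 216 CPM over all cells, stood at 37.7 CPM in WT and 8.39 CPM in Cd226-/- cells of the papilla groups, 4.49-fold higher in WT (2.41 to 9.13).

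Over all the dermal papilla-like cells the other pigment genes stayed within 1.5-fold. Edn3 stood at 706 CPM in WT and 566 CPM in Cd226-/- cells, 1.25-fold higher in WT (1.17 to 1.33). Atrn and Mgrn1, which agouti needs in the cells that receive it, stood at 45.7 and 54.5 CPM and at 26.3 and 35.3 CPM, with intervals of 0.942 to 1.51 and 0.992 to 1.82 for Cd226-/- over WT. In the papilla groups Mgrn1 passed 1.5-fold, at 29.3 CPM in WT and 44.7 CPM in Cd226-/- cells, 1.53-fold higher (1.04 to 2.25).

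The libraries differed widely in how many papilla-group cells held Asip. Of 352 WT papilla-group cells, 315 had no Asip UMI, 20 had 1 to 9 and 17 had at least 10. Of 191 Cd226-/- cells, 75 had none, 20 had 1 to 9 and 96 had at least 10. Cells with at least 10 were 4.83% of the WT cells (2.84% to 7.62%) and 50.3% of the Cd226-/- cells (43.0% to 57.6%). In those cells alone, which were picked for Asip, it stood at 14767 CPM in WT and 18282 CPM in Cd226-/- cells. The split at 10 UMIs was set after the values were seen; in WT more of the cells with any Asip UMI lay below it (20) than above (17).

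Depth was compared by thinning each cell to 3000 UMIs, which left out 28 WT and 1 Cd226-/- papilla-group cells. An Asip UMI was then seen in 9.26% of WT (6.34% to 13.0%) and 56.3% of Cd226-/- papilla-group cells (48.9% to 63.5%); before thinning the shares were 10.5% and 60.7%. In Ptprc-positive cells, which should lack the gene, the thinned shares were 1.23% and 1.25%, at median depths of 6569 and 6857 UMIs. In other mesenchymal cells they were 6.13% and 1.58%. The shares in the papilla groups were thus above those of Ptprc-positive cells in both libraries. The 10 richest cells held 82.5% of the Asip UMIs of all WT dermal papilla-like cells and 23.2% of those of the Cd226-/- cells.

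Papilla-group cells with at least 10 Asip UMIs resembled each other across the libraries in several genes. Sox18 stood at 290 CPM in such WT cells and 289 CPM in such Cd226-/- cells, against 38.4 and 153 CPM in cells with no Asip UMI. Bmp6 stood at 249 and 334 CPM, against 61.2 and 54.3 CPM, and Notum at 257 and 478 CPM, against 99.6 and 88.5 CPM. All 3 genes were thus higher in the Asip-rich cells of both libraries. Sox2 had a UMI in 17.6% of the WT and 17.7% of the Cd226-/- cells with at least 10 Asip UMIs, against 29.2% and 57.3% of cells without. The first share is 3 of 17 cells, too few to read an order in WT. These shares are unthinned, and the median depth of the 4 sets was 7320, 6829.5, 4754 and 6291 UMIs.

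Other genes differed between the libraries also among cells with no Asip UMI. There Inhba stood at 2393 CPM in WT and 984 CPM in Cd226-/- cells, Sfrp1 at 3185 and 1101 CPM, and Rspo4 at 614 and 145 CPM. Fst stood at 230 and 1133 CPM, and Wnt5a at 227 and 620 CPM. In cells with at least 10 Asip UMIs these genes were closer between WT and Cd226-/-, with Inhba at 639 and 532 CPM, Fst at 1012 and 1218 CPM, and Wnt5a, in the other order, at 830 and 751 CPM. Sfrp1 stood there at 1261 and 675 CPM and Rspo4 at 183 and 102 CPM. For Notum and Bmp6 the levels in cells with no Asip UMI were close, at 99.6 and 88.5 CPM and at 61.2 and 54.3 CPM. The cells with at least 10 UMIs were 17 in WT, from 3 pooled mice whose share in them is not known.

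**Figure D5:**
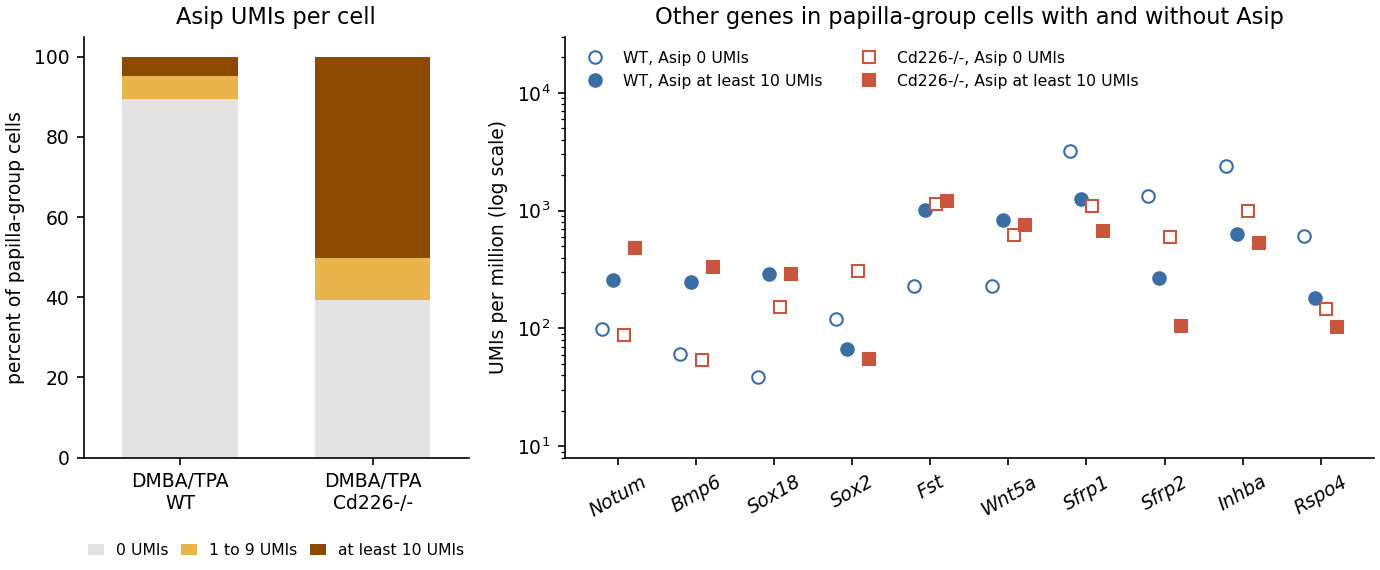
Left, percent of papilla-group cells of each treated library with 0, 1 to 9 and at least 10 Asip UMIs. Right, levels (CPM, log axis) of 10 genes in cells with 0 (open) or at least 10 (filled) Asip UMIs of the WT (blue circles) and Cd226-/- (red squares) library, as sums over cells with no replicate; the dark part of the bars is 4.83% of the WT and 50.3% of the Cd226-/- cells.

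The 5 papilla groups were unevenly spread over the libraries, and a group that is mostly 1 library may be that library and not a type. The group with the highest Asip level held 11 WT and 95 Cd226-/- cells. A group high in Sox2 (387 CPM) held 21 WT and 58 Cd226-/- cells. A group high in Inhba (5118 CPM) and Aldh1a1 held 73 WT cells and no Cd226-/- cell. The other 2 held 157 WT and 17 Cd226-/- cells, and 90 WT and 21 Cd226-/- cells. The 10 leading genes of the Asip-rich group included the immune genes Il17a and Il22, and S100a8, S100a9 and Il1b were among those of the group of 90 WT and 21 Cd226-/- cells. Ccl4, Traf3ip3 and Cxcl3 were also among them, so immune genes outnumbered the papilla gene Ndnf in that list, although the group stood at 1601 CPM of Crabp1. In all dermal papilla-like cells Il17a stood at 30.5 CPM (WT) and 5.76 CPM (Cd226-/-), against 838 and 761 CPM in Ptprc-positive cells. In the Asip-rich group it stood at 105 CPM, over 84178 WT and 750088 Cd226-/- UMIs. Given the low Cd226-/- level, most Il17a UMIs of that group came from its 11 WT cells and not from its 95 Cd226-/- cells.

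Within single groups, which were formed on genes such as these, Inhba and Sfrp1 stood closer together in the libraries than over all papilla-group cells. Inhba stood at 1703 CPM in WT and 977 CPM in Cd226-/- cells of the group of 157 and 17 cells, at 2057 and 1962 CPM in that of 90 and 21, at 630 and 539 CPM in the Asip-rich group and at 509 and 577 CPM in the Sox2-rich group. Its highest level, 5118 CPM, was that of the group with WT cells only. Sfrp1 stood at 3235 and 2200, 2260 and 1908, 737 and 669, and 491 and 566 CPM in the same 4 groups.

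Genes of the dermal sheath list were higher in Cd226-/- cells in 6 of 8 cases and lower in none (median log2 ratio 1.20), and in 3 of 6 cases in the papilla groups (median 0.60). Acta2 stood at 183 CPM in WT and 887 CPM in Cd226-/- cells, 4.86-fold higher (4.44 to 5.32), but at 15.2 and 18.9 CPM in the papilla groups. Col11a1, a fibrillar collagen, stood at 151 and 506 CPM, 3.35-fold higher (3.02 to 3.71), and at 143 and 329 CPM in the papilla groups. The 10 richest cells held 62.0% of the Acta2 UMIs in WT and 81.0% in Cd226-/- cells, with up to 62 and 393 UMIs in a cell. With at least 3 rule genes per cell the ratio of Acta2 was 1.11. Most Acta2 UMIs lay in the sheath-like group, which was set apart by its Acta2 level, so their place there is no finding. That group held 60 of the 478 WT and 52 of the 275 Cd226-/- cells, with 1061 and 3707 CPM of Acta2.

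Of 18 measured papilla matrix genes, 5 were higher and 4 lower in Cd226-/- cells. Lamc3, a laminin chain, stood at 132 and 246 CPM, 1.87-fold higher (1.65 to 2.11), against 3.1 and 0.864 CPM in other mesenchymal cells. Periostin (Postn) stood at 926 and 501 CPM, 1.85-fold higher in WT (1.73 to 1.97), and the collagen gene Col4a1 at 1081 and 714 CPM, 1.51-fold higher in WT (1.43 to 1.60). Postn was 1.82-fold higher in WT in other mesenchymal cells as well, but only 1.27-fold higher with a rule sum of at least 20; Col4a1 was 1.43-fold higher in WT as a mean over cells.

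For interferon genes the sign of the median differed between all the cells and the papilla groups. For inflammatory genes the median stayed negative, while the counts of higher and lower genes changed. Fewer genes were measured in the papilla groups, so a change of genes and a change of cells cannot be told apart. Of 19 measured interferon-gamma response genes, 1 was higher and 6 lower (median log2 ratio -0.35); in other mesenchymal cells the median was -0.45, with none higher and 2 lower. In the papilla groups 5 of 13 were higher and 2 lower (median 0.51). Gbp2, an interferon-inducible GTPase, stood at 23.9 and 9.98 CPM over all the cells and at 9.0 and 3.5 CPM in the papilla groups. B2m, the light chain of MHC class I, stood at 961 and 646 CPM, 1.49-fold higher in WT (1.40 to 1.58). Of 24 measured inflammatory genes, 2 were higher and 8 lower over all the cells (median -0.08), and 6 of 15 higher and 5 lower in the papilla groups (median -0.24). Cxcl1, a chemokine for neutrophils, differed by 1.18-fold over all the cells (1.08 to 1.29) and was 2.53-fold higher in the Cd226-/- papilla groups (2.07 to 3.1). Of 11 measured type I interferon genes none was higher and 3 were lower (median -0.28); in the papilla groups 2 of 4 were higher and 1 lower (median 0.64). Of 11 hormone receptor genes 1 was higher and 1 lower, near the 8.23% and 9.23% of all genes tested, and in the papilla groups 2 of 9 were higher and 3 lower. Of 16 glycolysis and hypoxia genes 2 were higher and 3 lower, and in the papilla groups 4 of 15 were higher and 1 lower.

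Cell cycle and stress genes also stood higher in Cd226-/- cells. All 9 measured cell cycle genes were higher (median log2 ratio 1.88), as were 7 in other mesenchymal cells (median 2.35). In the papilla groups only 1 of them was measured, with a log2 ratio of 0.52, which did not pass 1.5-fold, and with at least 3 rule genes per cell the median was 0.54. Top2a stood at 10.8 and 53.0 CPM, with a UMI in 0.673% and 3.32% of the thinned cells. Before thinning only 7 WT and 11 Cd226-/- cells held it, with up to 26 and 41 UMIs in a cell. Its ratio was 12.5 without the richest cell of each library and 1.62 with at least 3 rule genes per cell. Of 20 measured stress genes known to be induced by tissue dissociation, 6 were higher and 1 lower over all the cells (median 0.39), but 15 of 19 were higher and none lower in the papilla groups (median 1.14), against a median of -0.24 in other mesenchymal cells. Btg2, an early response gene, stood at 125 CPM in WT and 560 CPM in Cd226-/- papilla-group cells. The part of the stress genes in the other differences between the papilla groups was not tested. Melanocyte genes were lower in Cd226-/- cells: Pmel stood at 23.0 and 1.15 CPM, and at 17.3 and 0.768 CPM in other mesenchymal cells, and the libraries held 71 (WT) and 10 (Cd226-/-) cells rich in melanocyte genes.

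The genes highest in Cd226-/- relative to WT by the bound of the interval nearest to equality included, beside Asip, Thbs4, Casq2, Tnmd, Pcsk2, Gal and the histone genes Hist1h2ap, Hist1h1b and Hist1h2ae. Thbs4, a thrombospondin of matrix, had no UMI in WT cells and stood at 99.8 CPM in Cd226-/- cells, a ratio of 111 with the WT library set to 3 counts, whose interval starts at 89.9. With a rule sum of at least 5 the ratio was 22.4, and with at least 3 rule genes per cell 28. Casq2, a calcium-binding protein of muscle, stood at 1.79 and 62.6 CPM, 34.9-fold higher (15.7 to 96.5), or 14.3-fold with a rule sum of at least 5. Neither gene had a UMI in the papilla groups. Tenomodulin (Tnmd), known from tendon, stood at 30.2 and 214 CPM, 7.08-fold higher (5.72 to 8.85), with 12.2 and 784 CPM in the sheath-like group. The ratio of Tnmd was 3.43 with a rule sum of at least 20 and 1.81 with at least 3 rule genes per cell. The processing protease gene Pcsk2 stood at 1.79 and 19.96 CPM, 11.1-fold higher (4.78 to 31.7), and the neuropeptide gene Gal at 2.99 and 27.6 CPM, 9.25-fold higher (4.75 to 20.1). Gal was higher in the papilla groups too, by 12.9-fold. Pcsk2 had fewer than 50 UMIs over both libraries there, so no ratio is read from it. The 3 histone genes were also over 1.5-fold higher in Cd226-/- than in WT other mesenchymal cells, by 6.84-fold, 13.4-fold and 4.34-fold.

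The 10 genes highest in WT by the same rule were Ctla2a, Aldh1a7, Slc36a2, Crym, Aldh1a1, Calcrl, Ugt8a, Stac, Creb5 and Dusp4. Aldh1a1, an enzyme that makes retinoic acid, stood at 68.1 CPM in WT and 6.53 CPM in Cd226-/- cells, 10.4-fold higher in WT (6.38 to 18.2), and at 87.8 and 1.40 CPM in the papilla groups. Crym, a thyroid hormone binding protein, stood at 134 and 13.8 CPM, 9.69-fold higher in WT (6.89 to 14), and at 228 and 18.9 CPM in the papilla groups. Dusp4, a phosphatase that restrains MAP kinases, stood at 78.9 and 9.21 CPM, 8.56-fold higher in WT (5.63 to 13.6), and at 129 and 8.39 CPM in the papilla groups. These 3 genes were thus higher in WT in the papilla groups also. Slc36a2, Ugt8a, Stac and Aldh1a7 were 14-, 11.7-, 17.6- and 52.2-fold higher in WT, with 1 UMI of Aldh1a7 in Cd226-/- cells. Ctla2a, at 806 and 77.2 CPM, lay mostly in the fibroblast-like group and was 1.66-fold higher in Cd226-/- cells in the papilla groups (1.07 to 2.58), the opposite direction. Creb5 and Calcrl stood at 1.69 and 11.8 CPM in the WT papilla groups, and both were higher in WT in other mesenchymal cells, by 1.86-fold and 4.46-fold.

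The 7 cells of the naive CD45- library held 77531 UMIs in all, too few to compare genes with the treated cells. They comprised 5 cells grouped with the Acta2-rich cells, 2 grouped with the Dcn-rich cells and no papilla-group cell, a share that allows up to 0.0333% of the Ptprc-negative naive cells. The first 5 had 8 UMIs of Acta2 (132 CPM) and none of Tagln, far below the treated cells of that group, with 82.5 CPM of Acan (5 UMIs), so the name sheath-like is not used for them. In them Wif1 stood at 1023 CPM (62 UMIs), Igfbp3 at 13746 CPM (833 UMIs) and Asip at 512 CPM (31 UMIs). The naive CD45+ library gave 3 cells with 35087 UMIs that were grouped with the Acta2-rich cells, but they had 1 UMI of Acta2, none of Tagln or Acan, and 2822 CPM of Dcn. No papilla-group cell was found there.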

How the data were processed

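Skin cells of 4 libraries, 1 per group, were profiled by 10x 3′ sequencing with antibody tags; per the submitters' processing notes, Cell Ranger 3.1.0 and the build mm10 were used. The deposited values are raw UMI counts per gene and barcode for 31053 genes and 2 tags. Barcodes with at least 500 genes, 1000 gene UMIs and at most 10% mitochondrial UMIs were kept. Doublets called with Scrublet (scanpy 1.11.5) were not removed; it marked 0.256% to 5.38% of kept cells. Counts were summed over the cells of each library and scaled per 1000000 gene UMIs. Intervals (scipy 1.17.1) are exact 95% Poisson, conditional binomial or Clopper-Pearson intervals. Genes needed 50 UMIs over both libraries. A zero was set to 3 counts for a fold. Groups came from Leiden clustering (resolution 0.5, 15 principal components, 1000 variable genes); those above 500 CPM of Acta2 or 2000 CPM of Dcn were set apart after the values were seen. Agouti is listed under the symbol a and is called Asip here. Positions are those of GENCODE vM21, which held 30934 of the gene IDs.

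The cells, gene lists and rules were chosen with earlier results of these data known, so nothing here is independent evidence. Named genes are those of the lists and the first 10 in each direction when genes are ranked by whichever end of the interval lies closer to a ratio of 1, without mitochondrial, ribosomal, predicted, sex-linked and receptor-segment genes and those mainly of another cell class; some genes are not reported here. The scripts were tested on simulated counts. Other thresholds, scalings, doublet removal and groupings were tried as alternatives; leaving out the sheath-like and fibroblast-like groups and other Leiden resolutions were chosen after seeing the data.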

Additional observations from a re-analysis of the deposited data

Results flagged for a closer look

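Several genes of the lists differed between Cd226-/- and WT in 1 direction in the dermal papilla-like cells and in the other direction in other mesenchymal cells, past 1.5-fold in both; the difference between the 2 cell classes was not tested, and 127 genes in all showed such opposite ratios. The ratio of Cd226-/- over WT in the dermal papilla-like cells was 10.6 for Asip, 7.08 for Tnmd, 3.38 for Alpl, 3.35 for Col11a1, 2.14 for Ednrb, 1.87 for Lamc3, 1.80 for Gli1, 1.63 for Tnc, 1.53 for Trps1 and 1.51 for Ptch1. It was 0.464 for Spry4, 0.345 for Bmp3 and 0.260 for Sfrp2. Of these, Ednrb was higher in WT when the papilla groups were counted alone, at 37.7 against 8.39 CPM. Tnc stood there at 5.63 CPM in WT and 4.2 CPM in Cd226-/- cells, below 50 UMIs and within 1.5-fold, so no direction is read from it. The naive CD45+ library, which enters no comparison of genes, held 3 dermal papilla-like cells although it was sorted for leukocytes.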

How the results depend on the processing

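Of the main shares, counts and medians followed under each alternative, 133 values stayed close to the reported one and 29 moved. The share of dermal papilla-like cells was 10.7% (WT), 9.37% (Cd226-/-), 0.379% (naive CD45-) and 2.13% (naive CD45+) with at least 5 UMIs of the rule genes, and 7.77%, 6.43% and 0.0180% in the first 3 with at least 20. It was 7.84%, 6.26%, 0.0180% and 0% with at least 3 rule genes per cell, and 6.59%, 5.29%, 0% and 0% without the sheath-like and fibroblast-like groups; thinning gave 0.348% in naive CD45-. WT stayed above Cd226-/- under each of these thresholds and groupings. The count of genes past 1.5-fold was 2469 with at least 20 UMIs per gene and 1023 with at least 100. The median log2 ratio of Wnt inhibitors was -0.86 with at least 20 UMIs per gene, and that of Wnt factors and targets -0.19 with a rule sum of 5 and -0.19 in the papilla groups. The sheath list had 0.18 with at least 3 rule genes and 0.60 in the papilla groups, the interferon-gamma list 0.51 in the papilla groups, and the cell cycle list 0.81 with a rule sum of 20, 0.54 with at least 3 rule genes and 0.52 in the papilla groups. The papilla list against other mesenchymal cells had 5.2 (WT) and 6.40 (Cd226-/-) in the papilla groups.

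Among 116 single genes, 938 values stayed close, 135 moved and 9 changed direction (log2 ratios). These were Ctla2a (0.73) and Ednrb (-2.17) in the papilla groups; Ednrb (-0.021), Ube2c (-0.79) and Ccl11 (0.40) with at least 3 rule genes; Tnc (-0.32) with a rule sum of 5; Ccl11 (0.14) and Cxcl12 (0.029) with a rule sum of 20; and Il1b (0.76) without doublets. The cause was not tested. No paired analysis was possible because each group is 1 library. The planned comparison with naive cells was not run, with 7 cells there. Depth limits low genes: below 50 UMIs over both libraries in all the dermal papilla-like cells no ratio is given. Ratios under the alternatives or in other mesenchymal cells may rest on fewer UMIs.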
